A study of Mus musculus with 23 samples.

Results

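The Cyp4a subfamily of cytochrome P450 enzymes was followed in mouse liver through 6 of its genes, Cyp4a12a, Cyp4a12b, Cyp4a14, Cyp4a10, Cyp4a31 and Cyp4a32, taken by name out of 65535 genes in the deposited table. Cyp4a enzymes sit in the endoplasmic reticulum and add a hydroxyl group to the last carbon of fatty acids such as lauric and arachidonic acid, the first step of omega oxidation. Cyp4a10 and Cyp4a14 are textbook targets of PPARA, the nuclear receptor that senses fatty acids in hepatocytes, while Cyp4a12a is known in mouse as a male-biased enzyme, androgen-dependent in kidney, that makes 20-HETE from arachidonic acid. CYP2E1, the enzyme missing from the knockout line, is another hepatic P450, known for oxidising ethanol, acetone and fatty acids next to the terminal carbon.

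The libraries came from bulk liver of co-housed mice fed normal chow. The Male KO (6 libraries) and Female KO (6 libraries) groups carry the 129/Sv-Cyp2e1tm1Gonz/J genotype, a constitutive Cyp2e1 null line named CYP2E1-KO, and the Male WT (6 libraries) and Female WT (5 libraries) groups are 129S1/SvImJ mice. Because KO and WT are separately kept lines, the lost gene and the rest of the line cannot be told apart, and the labels give the age both as 12 to 13 weeks and as 16 weeks. The labels call the libraries biological replicates but do not tie each to 1 animal, so p-values measure the spread between these libraries, and in bulk liver fewer cells of a type cannot be told apart from less RNA per cell.

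Library totals lay between 1538889 and 9874733 counts (median 4658677), and the shallowest was Male KO replicate 3, whose mitochondrial share of 16.1% was also the highest among males. The targeted gene Cyp2e1 had 21.7 to 49.4 CPM (counts scaled to the library total) in Male KO and 18.1 to 37.7 CPM in Female KO, against 387 to 543 CPM in Male WT and 323 to 455 CPM in Female WT. All 8 hepatocyte markers were detected in each group, with a summed level of 89245 to 126233 CPM per library. Of 5 kidney tubule markers, a tissue that also uses Cyp4a genes, 3 (Slc12a1, Slc22a6 and Kap) had no count in any library, and the summed level of all 5 reached at most 0.243 CPM. The adipocyte marker list reached 23.7 CPM in Male KO replicate 2, against at most 6.45 CPM in the other Male KO libraries.

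All 6 genes lie in 1 cluster on chromosome 4 in the order Cyp4a12a, Cyp4a12b, Cyp4a14, Cyp4a10, Cyp4a31 and Cyp4a32, with Cyp4a14 on the minus strand and the others on the plus strand (GENCODE M21, GRCm38; the authors' build was mm39, so no positions are given). Their identifiers are ENSMUSG00000066071 (Cyp4a12a), ENSMUSG00000078597 (Cyp4a12b), ENSMUSG00000028715 (Cyp4a14), ENSMUSG00000066072 (Cyp4a10), ENSMUSG00000028712 (Cyp4a31) and ENSMUSG00000063929 (Cyp4a32). The other 5 annotated Cyp4a genes and pseudogenes in the table (Cyp4a28-ps, Cyp4a29, Cyp4a29-ps1, Cyp4a30-ps and Cyp4a30b) had no count in any library. Reads were counted near the 3′ ends of transcripts, so how far the copies differ there decides whether their counts can be kept apart.

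The last 60 coding bases, stop codon included, show how far the copies differ where their coding sequences end. Except for Cyp4a32, the annotated transcripts (2109 to 2509 bases) are longer than their coding sequences (1524 to 1530 bases). Reads near the 3′ end therefore need not fall on these bases. Capitals mark bases that differ from Cyp4a12b (for Cyp4a12a), from Cyp4a12a (for Cyp4a12b), from Cyp4a10 (for Cyp4a14, Cyp4a31 and Cyp4a32) or from Cyp4a14 (for Cyp4a10).
Cyp4a12a: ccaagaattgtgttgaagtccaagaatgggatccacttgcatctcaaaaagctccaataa
Cyp4a12b: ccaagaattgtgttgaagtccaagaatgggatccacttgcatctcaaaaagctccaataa
Cyp4a14: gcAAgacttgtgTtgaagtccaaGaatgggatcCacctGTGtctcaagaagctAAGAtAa
Cyp4a10: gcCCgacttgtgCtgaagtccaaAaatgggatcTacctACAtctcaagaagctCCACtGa
Cyp4a31: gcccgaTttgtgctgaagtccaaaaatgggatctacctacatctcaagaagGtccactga
Cyp4a32: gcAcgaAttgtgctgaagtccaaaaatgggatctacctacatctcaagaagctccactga
Cyp4a12a and Cyp4a12b do not differ over these bases, Cyp4a31 and Cyp4a32 each differ from Cyp4a10 at 2 of them, and Cyp4a14 differs from Cyp4a10 at 13.

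Over the whole coding sequence of 1527 bases Cyp4a12a and Cyp4a12b differ at 23 bases, an identity of 98.49%. The 60-base coding window in which they differ most holds only 4 of these differences, marked in capitals.
Cyp4a12a, coding bases 624 to 683: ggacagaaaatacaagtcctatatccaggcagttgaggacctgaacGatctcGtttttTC
Cyp4a12b, coding bases 624 to 683: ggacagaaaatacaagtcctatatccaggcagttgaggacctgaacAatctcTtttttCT
In the last 300 bases of the annotated transcripts, 51.4% of all 50-base words of Cyp4a12a also occurred in Cyp4a12b, while Cyp4a14, Cyp4a10 and Cyp4a31 shared none with any other Cyp4a gene. For Cyp4a32, whose annotated transcript holds only its 1530 coding bases, 60.2% of these words occurred in Cyp4a10 or Cyp4a31. Fractional counts arise when reads are divided between genes. They occurred for Cyp4a12a and Cyp4a12b in 15 of 23 libraries, and for Cyp4a10 and Cyp4a31 in 14. Cyp4a32 had them in 10 and Cyp4a14 in 0. Parts of divided reads can add up to a whole number, so a whole count does not show that no read was divided. Cyp4a10 and Cyp4a31 thus had fractional counts although their last 300 bases shared no such word. In their last 500 bases, 5.99% of the words of each occurred in the other. The split between Cyp4a12a and Cyp4a12b, and the levels of Cyp4a31 and Cyp4a32, are therefore uncertain. Sums over close copies are given beside the single genes.

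Male and female livers carried mostly different Cyp4a transcripts. In Male WT liver Cyp4a12a made up 81.8% ± 4.27 (SD, n = 6) of the summed CPM of the 6 genes and Cyp4a12b 10.5% ± 1.29. In Female WT liver Cyp4a10 made up 58.0% ± 4.92 (SD, n = 5), Cyp4a14 39.7% ± 4.97 and Cyp4a12a 0.452% ± 0.201. With 3′ counting each transcript is read from its end whatever its length, so CPM was not divided by length for these shares. The summed level did not separate the sexes: it averaged 862 ± 101 CPM in Male WT and 647 ± 315 CPM in Female WT, and the libraries overlapped. In the KO line Cyp4a12a made up 65.3% ± 27.0 of the summed CPM in Male KO, and Cyp4a14 and Cyp4a10 made up 49.3% ± 6.54 and 48.8% ± 6.86 in Female KO (SD, n = 6 each), with summed levels of 778 ± 561 CPM in Male KO and 1013 ± 794 CPM in Female KO.

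**Figure D1:**
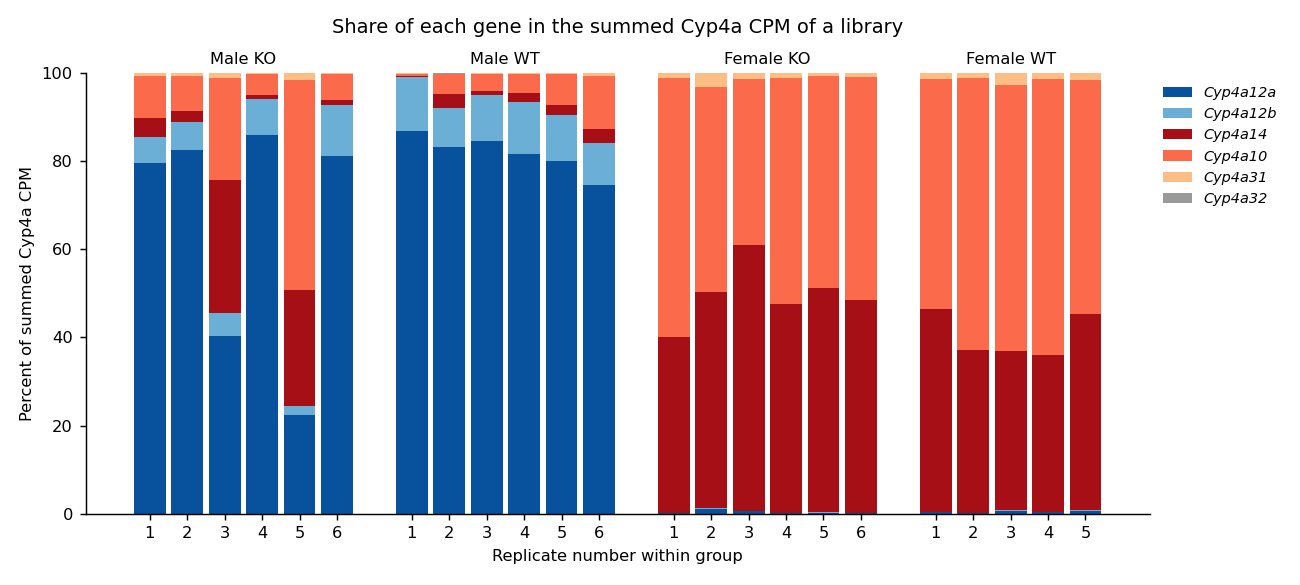
Share of each Cyp4a gene in the summed Cyp4a CPM (percent, y axis) of each of 23 liver libraries (x axis, replicate number within Male KO, Male WT, Female KO and Female WT). Cyp4a12a and Cyp4a12b fill most of each male bar except Male KO replicates 3 and 5, where Cyp4a12a made up 40.3% and 22.4%, and Cyp4a10 and Cyp4a14 fill nearly all of each female bar.

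The male-biased pair is Cyp4a12a and its near copy Cyp4a12b. Cyp4a12a had 575, 735 and 769 CPM (lowest, median and highest of 6) in Male WT, against 1.84, 1.89, 1.91, 2.92 and 4.00 CPM in the 5 Female WT libraries. Every Male WT library stood far above every Female WT library, and 7.72% of the tested genes did not overlap between these groups. The fitted difference of Male WT against Female WT was 8.20 ± 0.26 (log2, SE), or 295-fold, with an adjusted p of 7.34e-19 (edgeR's quasi-likelihood test, Benjamini-Hochberg over 11370 genes). Cyp4a12b had 60.5, 91.9 and 111 CPM (lowest, median and highest) in Male WT, against 0.0996 to 1.51 CPM in Female WT, where its counts summed to 16.5 over 5 libraries. Its fitted difference was 7.30 ± 0.39, or 157-fold (adjusted p = 7.48e-14).

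In the KO line the same pair was again the male one. Cyp4a12a had 197, 446 and 502 CPM (lowest, median and highest) in Male KO, against 1.53, 2.20 and 3.56 CPM in Female KO. Cyp4a12b had 25.2, 38.4 and 64.3 CPM in Male KO, against 0, 0.487 and 1.218 CPM in Female KO, where 1 library had no count. Neither gene's male and female libraries overlapped, which held for 3.67% of the tested genes, and the fitted differences were 7.60 ± 0.23 for Cyp4a12a (adjusted p = 3.22e-19) and 6.26 ± 0.38 for Cyp4a12b (adjusted p = 1.16e-12). Taken as 1 feature, Cyp4a12a + Cyp4a12b differed by 8.06 ± 0.29 between Male WT and Female WT and by 7.44 ± 0.27 between Male KO and Female KO.

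The female-biased genes are Cyp4a14 and Cyp4a10, a lauric acid hydroxylase pair known from their strong induction by PPARA agonists. Cyp4a14 had 1.82, 18.8 and 31.6 CPM (lowest, median and highest) in Male WT, against 105, 209, 264, 278 and 414 CPM in Female WT. No library overlapped between the sexes, as for 7.72% of the tested genes, and the fitted difference was -3.78 ± 0.90, a 13.8-fold lower level in Male WT (adjusted p = 0.00866). Cyp4a10 had 5.23, 37.95 and 115 CPM in Male WT, against 175, 238, 334, 465 and 692 CPM in Female WT, again without overlap. Its fitted difference was -2.88 ± 0.82, a 7.34-fold lower level in Male WT (adjusted p = 0.0341).

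Cyp4a31, the close relative of Cyp4a10, had 1.05, 1.61 and 6.76 CPM in Male WT, against 6.46, 8.24, 9.57, 10.4 and 12.0 CPM in Female WT. Only Male WT replicate 6 reached into the female range. The difference of -1.81 ± 0.62 did not pass by edgeR with all libraries and the filter on low counts (adjusted p = 0.0971) or by DESeq2 (0.0962). It passed without that library (-2.46, adjusted p = 0.0298) and, with all libraries, by limma-voom (-2.07, 0.0181), with only the WT groups in the fit (-1.81, 0.00308) and with no filter on low counts (-1.80, 9.77e-05). Taken as 1 feature, Cyp4a10 + Cyp4a31 + Cyp4a32 differed by -2.83 ± 0.80 (adjusted p = 0.0342). By edgeR with all libraries and the filter, 2 of the 5 tested members were called higher and 2 lower in Male WT than in Female WT. In that fit 5.61% of all tested genes were called (2.36% higher and 3.25% lower). At an unadjusted p under 0.05 all 5 passed, against 17.2% of all tested genes. The median difference was -1.81 over the 5 members and -0.02 over all tested genes. The members' median is the value of Cyp4a31 and mixes the higher Cyp4a12 pair with the lower Cyp4a14 and Cyp4a10. The call for Cyp4a10 held in 3 of 11 fits that each left out 1 library, with adjusted p between 0.0227 and 0.0938, and was lost without Female WT replicates 2, 4 or 5 or any of Male WT replicates 1 to 5.

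**Figure D2:**
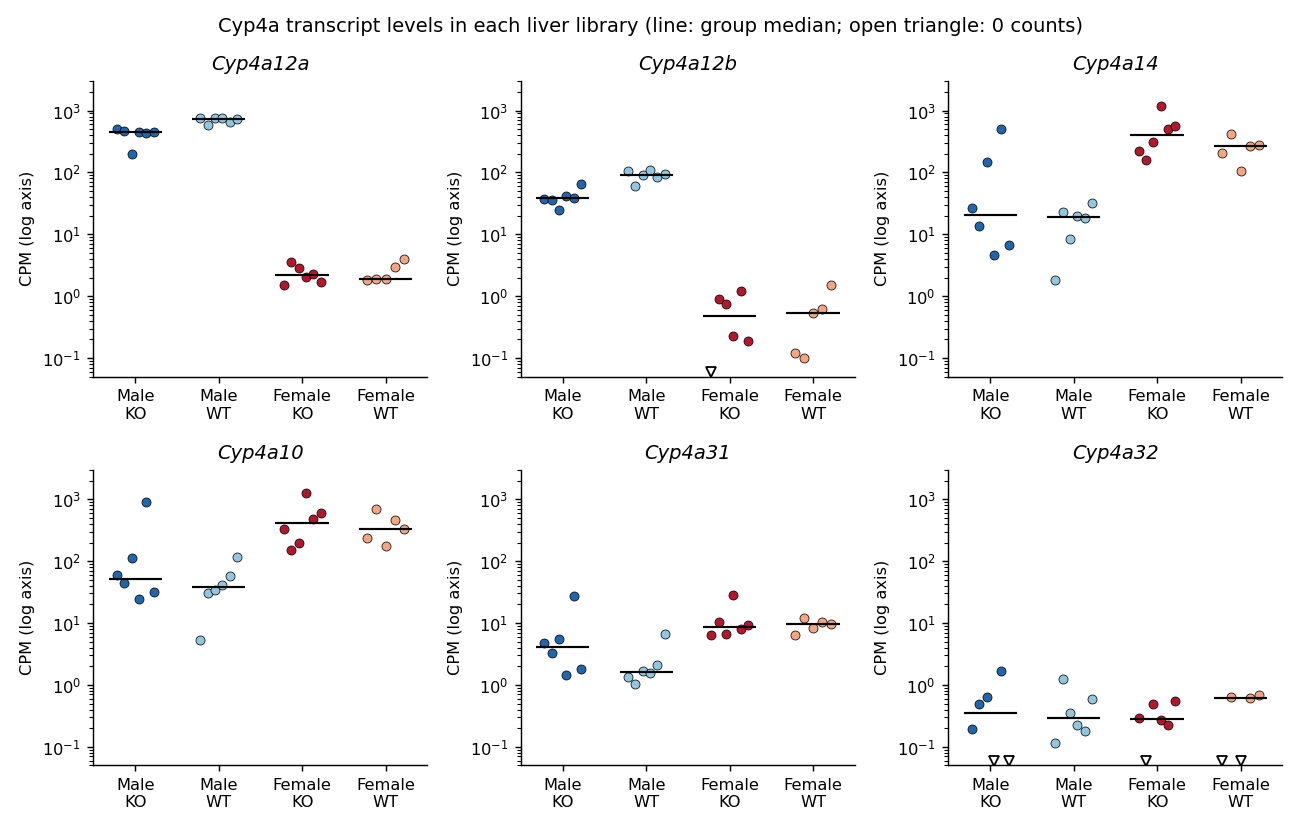
Deposited CPM (log axis) of the 6 Cyp4a genes in each liver library, grouped as Male KO, Male WT, Female KO and Female WT, with a line at the group median and open triangles for libraries with 0 counts. Cyp4a12a and Cyp4a12b separate males from females by over 1 log unit, while Cyp4a14 and Cyp4a10 spread from 4.61 to 505 CPM and from 24.6 to 917 CPM within Male KO.

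Between the sexes of the KO line, edgeR with the filter on low counts did not call the female-biased genes with all libraries in the fit. Limma-voom called Cyp4a14. Cyp4a14 had 4.61, 20.3 and 505 CPM (lowest, median and highest) in Male KO, against 157, 409.5 and 1186 CPM in Female KO, and Cyp4a10 had 24.6, 52.0 and 917 CPM, against 149.6, 406 and 1280.1 CPM. For both, 5 of 6 Male KO libraries lay below every Female KO library, and replicate 5 lay within the female range. The fitted differences were -1.90 ± 0.80 for Cyp4a14 (adjusted p = 0.144), -1.18 ± 0.75 for Cyp4a10 (adjusted p = 0.349) and -0.53 ± 0.55 for Cyp4a31 (adjusted p = 0.598). By limma-voom the difference of Cyp4a14 was -3.74 (adjusted p = 0.00292) and that of Cyp4a10 -2.22 (0.0625), and with no filter on low counts edgeR called Cyp4a14 at -1.97 (adjusted p = 1.60e-04) and Cyp4a10 at -1.24 (0.0379). Without Male KO replicate 5 all 3 passed, at -3.68 for Cyp4a14 (adjusted p = 0.00272), -3.19 for Cyp4a10 (0.00147) and -1.79 for Cyp4a31 (0.0203). With all libraries and the filter, edgeR called 2 of 5 members higher and 0 lower in Male KO than in Female KO. In that fit 7.44% of all tested genes were called (3.67% higher and 3.77% lower). At an unadjusted p under 0.05 it was 3 of 5 members, against 24.1% of all tested genes. The medians were -0.53 over the members, which is the value of Cyp4a31, and 0.01 over all genes. The members' median was -1.79 without Male KO replicate 5, 0.04 without Female KO replicate 4 and -0.32 to -0.30 without Male KO replicates 2, 4 or 6. The WT and KO sex differences were not shown to differ: the sex by genotype interaction called 0 of 5 members and 0% of 11370 genes.

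The low gene of the family was Cyp4a32. Its counts summed to 46.2 over all 23 libraries, too few for the filter on low counts, so it was not tested with the other 5. It averaged 0.507 ± 0.640 CPM in Male KO, 0.452 ± 0.428 CPM in Male WT, 0.305 ± 0.201 CPM in Female KO and 0.386 ± 0.353 CPM in Female WT. With 3 counts standing for 0.304 to 1.95 CPM depending on depth, no order among the groups can be read from these levels.

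Levels of the 6 genes within a group ran over a wide range. In Male WT the group means ran from Cyp4a12a (704 CPM) through Cyp4a12b (90.9), Cyp4a10 (47.5), Cyp4a14 (17.0) and Cyp4a31 (2.41) to Cyp4a32 (0.452), and the ranges of all neighbours in this order overlapped except those of Cyp4a12a and Cyp4a12b. In Female WT they ran from Cyp4a10 (381 CPM) through Cyp4a14 (254), Cyp4a31 (9.32), Cyp4a12a (2.51) and Cyp4a12b (0.577) to Cyp4a32 (0.386). There the ranges of Cyp4a10 and Cyp4a14 overlapped, as did those of Cyp4a12b and Cyp4a32.

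KO liver was compared with WT liver within each sex. In males the Cyp4a12 pair had lower and the PPARA-linked genes higher mean levels in KO than in WT, but by edgeR none of the 5 tested members passed the threshold, where 0.132% of 11370 genes were called. DESeq2 called 2 of the 5 (Cyp4a12a and Cyp4a12b) and 0.413% of these genes, and limma-voom called 1 (Cyp4a12b) and 0.0704%. At an unadjusted p under 0.05 all 5 members passed, against 13.1% of all tested genes. The median difference was 1.64 over the 5 members and 0.04 over all tested genes. Without Male KO replicate 5 the members' median was 0.21, against 0.04 over all genes, and 2 of 5 members had an unadjusted p under 0.05, against 11.3% of all genes. All 9 Kupffer cell and macrophage markers were detected in both groups, with a summed level of 121 to 361 CPM in Male KO and 105 to 157 CPM in Male WT, and their part in these values was not tested.

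Cyp4a12a was measured at 502, 461, 197, 443, 429 and 449 CPM in Male KO replicates 1 to 6, against 758, 575, 747, 769, 649.8 and 724 CPM in Male WT replicates 1 to 6. All Male KO libraries lay below all Male WT libraries, a separation that 0.616% of the tested genes showed. The mean was 414 ± 109 CPM in Male KO and 704 ± 76.2 CPM in Male WT (SD, n = 6 each). The fitted difference was -0.69 ± 0.16 (log2, SE; 95% interval -1.02 to -0.36), and its adjusted p of 0.0928 missed the threshold. Without Male KO replicate 3, the shallowest library and the lowest value, the difference was -0.57 (adjusted p = 0.127).

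Cyp4a12b was measured at 37.6, 36.1, 25.2, 42.0, 39.1 and 64.3 CPM in Male KO replicates 1 to 6, against 106, 60.5, 91.1, 111, 83.8 and 92.8 CPM in Male WT replicates 1 to 6. Of the Male KO libraries 5 lay below all Male WT libraries, and replicate 6 overlapped with Male WT replicate 2. The mean was 40.7 ± 12.9 CPM in Male KO and 90.9 ± 18.0 CPM in Male WT, and the fitted difference was -1.05 ± 0.23 (95% interval -1.52 to -0.59; adjusted p = 0.0573). This gene lay near the threshold: it was called without Male KO replicate 6 (adjusted p = 0.0124), without Male WT replicate 2 (0.0425), with unrounded counts (0.0383), with the replicate block (0.0396), with only the 2 groups in the fit (0.0342), with limma-voom (0.0173), with DESeq2 (0.00123) and with no filter on low counts (2.95e-06). Cyp4a12a was called with DESeq2 (adjusted p = 0.0118) and with no filter (0.00438). As 1 feature Cyp4a12a + Cyp4a12b differed by -0.73 ± 0.19 (adjusted p = 0.129). Cyp4a12b made up 9.18% ± 2.25 of this pair in Male KO and 11.3% ± 1.10 in Male WT, with overlapping libraries.

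Cyp4a14 was measured at 26.8, 13.7, 148, 4.61, 505 and 6.80 CPM in Male KO replicates 1 to 6, against 1.82, 22.6, 8.46, 19.6, 18.0 and 31.6 CPM in Male WT replicates 1 to 6. Replicates 3 and 5 of Male KO stood above all Male WT libraries and the other 4 lay within their range, so that the medians, 20.3 and 18.8 CPM, were close. The mean was 117 ± 197 CPM in Male KO and 17.0 ± 10.5 CPM in Male WT. The fitted difference was 2.95 ± 0.87 (95% interval 1.17 to 4.73; adjusted p = 0.185).

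Cyp4a10 was measured at 59.3, 44.8, 113, 24.6, 917 and 31.8 CPM in Male KO replicates 1 to 6, against 5.23, 30.7, 34.0, 41.9, 57.8 and 115 CPM in Male WT replicates 1 to 6. Only Male KO replicate 5 lay outside the Male WT range. The mean was 198 ± 354 CPM in Male KO and 47.5 ± 37.3 CPM in Male WT, with medians of 52.0 and 37.95 CPM, and the fitted difference was 2.22 ± 0.78 (adjusted p = 0.281). Cyp4a31 had 1.46, 4.04 and 27.3 CPM (lowest, median and highest) in Male KO, against 1.05, 1.61 and 6.76 CPM in Male WT, and differed by 1.64 ± 0.64 (adjusted p = 0.304).

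The means of these 3 genes rested on Male KO replicate 5. Without it the differences of Male KO against Male WT were 1.16 for Cyp4a14, 0.21 for Cyp4a10 and 0.38 for Cyp4a31, with adjusted p of 0.551, 0.927 and 0.821, while those of Cyp4a12a and Cyp4a12b were -0.73 and -1.07. With no filter on low counts 5 of 6 members were called in this contrast, where 0.51% of 30807 genes were called, at 2.86 for Cyp4a14 (adjusted p = 8.26e-07) and 2.15 for Cyp4a10 (1.62e-04), with Male KO replicate 5 in the fit. Cyp4a32, tested only there, was not called (-0.0151, adjusted p = 1). By limma-voom, which works on log values, the differences were 1.15 for Cyp4a14 and 1.219 for Cyp4a10 (adjusted p = 0.590 and 0.501).

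**Figure D3:**
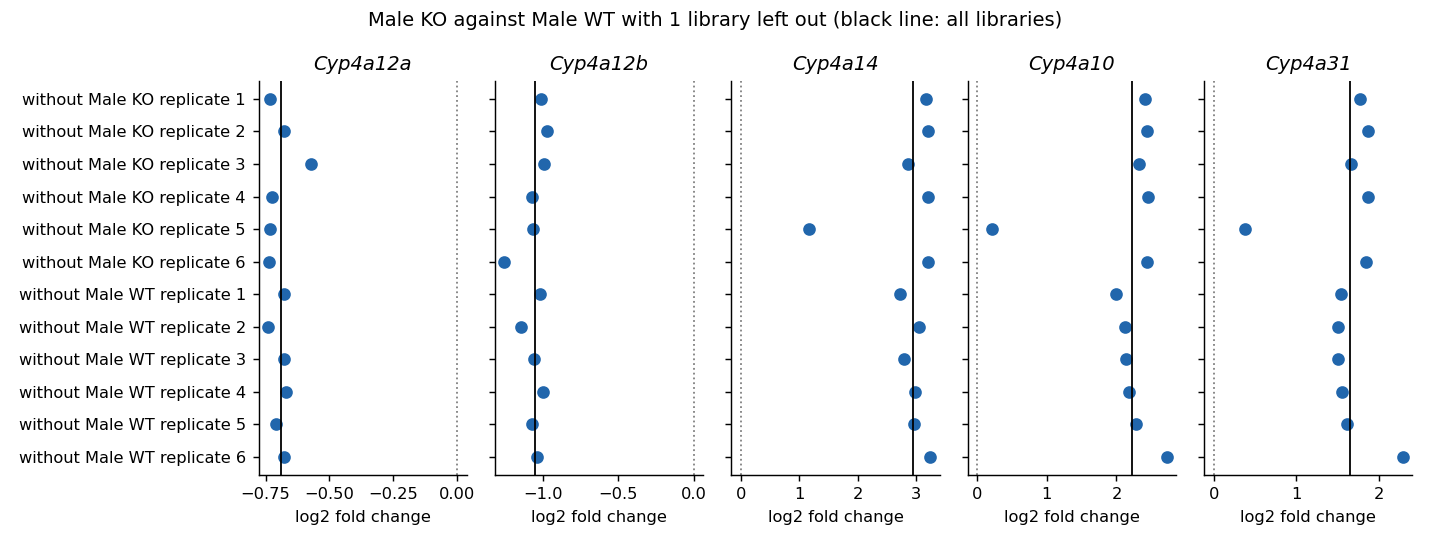
Fitted log2 fold change of Male KO against Male WT (x axis) for the 5 tested Cyp4a genes, with 1 male library left out at a time (y axis), a black line for the fit on all libraries and a dotted line at 0. Without Male KO replicate 5 the values for Cyp4a14, Cyp4a10 and Cyp4a31 lie at 1.16, 0.21 and 0.38, while Cyp4a12a and Cyp4a12b stay below 0 in all 12 fits.

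In Female KO against Female WT none of the 5 tested members was called by edgeR, DESeq2 or limma-voom, where edgeR called 0.193% of 11370 genes. At an unadjusted p under 0.05 it was 0 of 5 members by edgeR, against 8.84% of all genes. Cyp4a10 was measured at 332, 149.6, 194, 1280.1, 479.7 and 598 CPM in Female KO replicates 1 to 6, against 238, 692, 175, 465 and 334 CPM in Female WT replicates 1 to 5. The fitted difference was 0.53 ± 0.78 (95% interval -1.08 to 2.13; adjusted p = 0.919). Cyp4a14 was measured at 226, 157, 310.5, 1186, 509 and 568 CPM in Female KO, against 209, 414, 105, 264 and 278 CPM in Female WT, with a fitted difference of 1.06 ± 0.83 (95% interval -0.63 to 2.76; adjusted p = 0.788). For both genes the highest of all 23 libraries was Female KO replicate 4, and without it the differences were -0.09 for Cyp4a10 and 0.50 for Cyp4a14.

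Cyp4a31 had 6.39, 8.59 and 28.2 CPM (lowest, median and highest) in Female KO, against 6.46 to 12.0 CPM in Female WT, and differed by 0.36 ± 0.54 (adjusted p = 0.921). The male genes were low in females of both lines: Cyp4a12a averaged 2.34 ± 0.767 CPM in Female KO and 2.51 ± 0.947 CPM in Female WT, and Cyp4a12b 0.545 ± 0.477 CPM in Female KO and 0.577 ± 0.573 CPM in Female WT. The intervals of their differences ran from -0.67 to 0.49 for Cyp4a12a and from -1.44 to 1.40 for Cyp4a12b. The median difference was 0.36 over the 5 members and 0.01 over all tested genes, and without Female KO replicate 4 it was -0.09 over the members. All 7 sinusoidal endothelium markers were detected in both groups, with a summed level of 55.0 to 206 CPM in Female KO and 184 to 214 CPM in Female WT, and their part in these values was not tested.

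Whether the KO difference depended on sex was tested by the interaction term. Its value, the male difference minus the female one, was -0.60 (95% interval -1.27 to 0.08) for Cyp4a12a and -1.03 (-2.62 to 0.55) for Cyp4a12b. For the other genes it was 1.89 (-0.49 to 4.26) for Cyp4a14, 1.69 (-0.53 to 3.92) for Cyp4a10 and 1.28 (-0.44 to 3.01) for Cyp4a31. Each had an adjusted p of 0.934 by edgeR, and each interval included 0. Over the 11370 genes that passed the filter, edgeR, limma-voom and DESeq2 called 0 interactions, with 643 genes (5.66%) at an unadjusted p under 0.05 by edgeR.

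**Figure D4:**
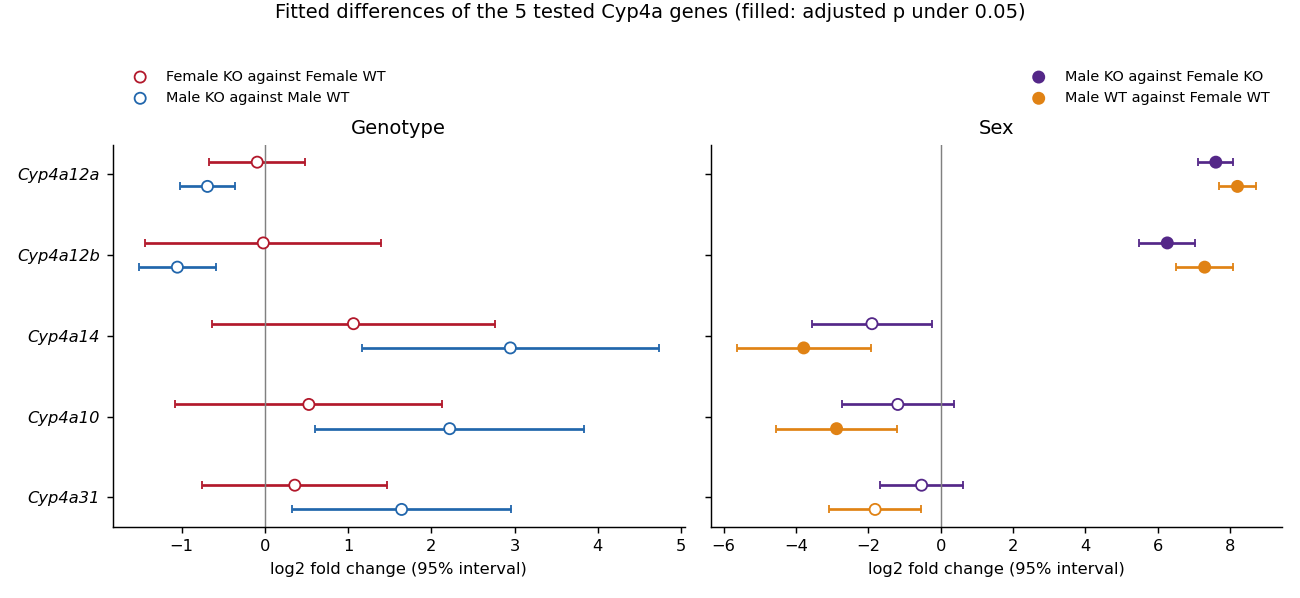
Fitted log2 fold changes (x axis) with 95% intervals of the 5 tested Cyp4a genes, for KO against WT within each sex on the left and for males against females within each line on the right, with filled points where the adjusted p was under 0.05. All genotype points are open, and the filled sex points are Cyp4a12a and Cyp4a12b in both lines and Cyp4a14 and Cyp4a10 in WT.

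Cyp4a10, Cyp4a14 and Cyp4a31 varied together from library to library, with weaker correlations with the Cyp4a12 pair. After group means were removed, log2 levels over the 23 libraries correlated at r = 0.93 between Cyp4a10 and Cyp4a14 (Spearman 0.91), 0.86 between Cyp4a10 and Cyp4a31 and 0.81 between Cyp4a14 and Cyp4a31. Without Male KO replicate 5 these were 0.89, 0.77 and 0.71. Between Cyp4a12a and Cyp4a12b r was 0.71, and the pairs across the 2 sets lay between -0.19 and 0.09 (Spearman -0.32 to 0.07). Without Male KO replicate 5 the pairs across the sets lay between -0.34 (Cyp4a12a and Cyp4a14) and -0.01 (Cyp4a12a and Cyp4a31). Cyp4a12a had 7 to 16 counts in Female KO libraries and 7.5 to 22.5 in Female WT. Cyp4a12b had 0 to 5.5 and 0.5 to 8.5. With counts this low in the female libraries, the low r across the sets cannot show that they vary apart. The points share a library's depth, and Cyp4a10 and Cyp4a31, like Cyp4a12a and Cyp4a12b, share divided reads, whereas Cyp4a14 had no fractional count.

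The ratio of Cyp4a10 to Cyp4a14 had a higher mean in males. It was 2.87 ± 0.99 in Male WT and 1.49 ± 0.30 in Female WT, and 3.01 ± 1.76 in Male KO and 1.02 ± 0.27 in Female KO, with overlapping libraries in each pair of groups. Between the lines the ratio lay at 0.626 to 1.47 in Female KO and 1.14 to 1.76 in Female WT. These ratios are given without a test.

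**Figure D5:**
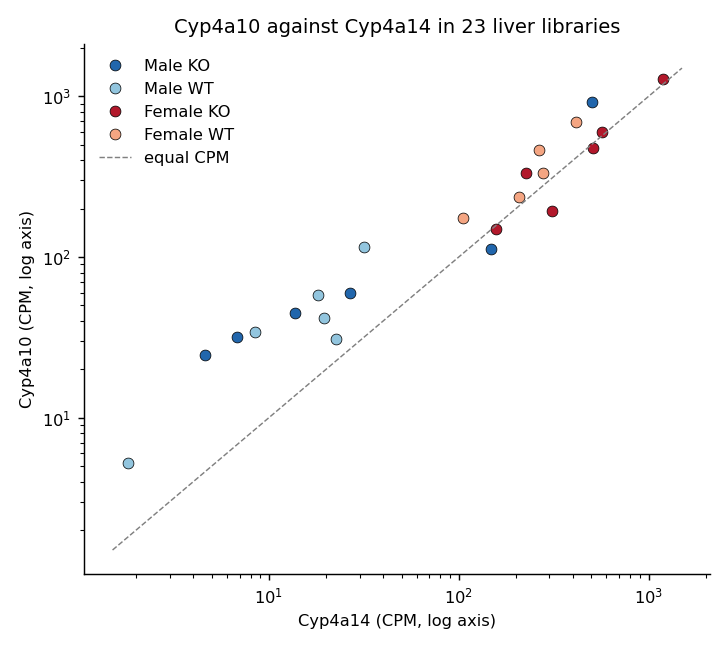
Cyp4a10 CPM (y axis, log) against Cyp4a14 CPM (x axis, log) in 23 liver libraries coloured by group, with a dashed line where both are equal. The points of all groups run along 1 band, and Male KO replicate 5, at 505 CPM of Cyp4a14 and 917 CPM of Cyp4a10, lies among the female libraries.

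The genes most like each member over these deviations were sought among 7690 with a level of at least 5 CPM. For Cyp4a10 they were Vnn1 (a pantetheinase, r = 0.87) and Hsdl2 (a peroxisomal dehydrogenase-like protein, 0.86). For Cyp4a14 they were Vnn1 (0.88), Hsdl2 (0.86) and Acot1 (a cytosolic acyl-CoA thioesterase, 0.85), and for Cyp4a31 Hadhb (a subunit of the mitochondrial trifunctional protein, 0.81), Hsdl2 (0.81) and Rdm1 (0.81). The Cyp4a12a list held Calm3 (a calmodulin gene, 0.81), Cyp2c67 (another P450, 0.79) and Rmdn3 (0.74), and the Cyp4a12b list Alas2 (erythroid haem synthesis, 0.75) and Sec23a (a coat protein of secretory vesicles, 0.68). These values were picked as the highest of many, over libraries that share depth and preparation. Those of the Cyp4a12 pair also rest on female libraries with at most 22.5 counts of Cyp4a12a and 8.5 of Cyp4a12b.

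Other targets of PPARA were also high in the libraries with the highest Cyp4a10 and Cyp4a14. Over 34 tested targets other than Cyp4a, the median deviation from the group mean was 0.53 (log2) in Male KO replicate 5, with 32 of 34 genes above the mean of Male KO, and 0.58 in Female KO replicate 4, with 31 of 34 above. Male KO replicate 3 had 0.11 (22 of 34). The lowest was Female KO replicate 2 at -0.40 (0 of 34), the library with the lowest Cyp4a10 and Cyp4a14 of its group. Male KO replicate 4 also had the lowest Cyp4a10 and Cyp4a14 of its group, but its median was -0.01 (16 of 34). Male KO replicates 1 and 2, with more of both genes, had -0.23 and -0.24 (7 of 34 each). The part of these targets in the Cyp4a levels was not tested.

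Between KO and WT, 0 of these 34 PPARA targets were called in either sex by edgeR, with medians of -0.01 in males and -0.03 in females. At an unadjusted p under 0.05 it was 3 in males and 1 in females, against 13.1% and 8.84% of all tested genes. Between the sexes edgeR called 5.61% of all tested genes in WT and 7.44% in KO. The gene lists that follow have the same background. Vnn1 averaged 7.99 ± 9.07 CPM in Male KO and 4.31 ± 1.94 CPM in Male WT (log2 difference 0.81, adjusted p = 0.617). Ppara itself averaged 56.4 ± 17.8 CPM in Male KO and 96.6 ± 27.7 CPM in Male WT (-0.69, adjusted p = 0.173), and 86.0 ± 22.0 CPM in Female KO and 131 ± 21.1 CPM in Female WT (-0.57, adjusted p = 0.339). Between the sexes 2 of 34 targets were higher and 6 lower in Male WT, among them the peroxisomal acyl-CoA thioesterases Acot3 (-4.28, adjusted p = 1.72e-04) and Acot4 (-1.73, 0.00334), Vnn1 (-2.20, 0.0368), all lower, and Fitm1, which helps form lipid droplets, higher (1.93, 7.39e-06). In Male KO against Female KO 2 were higher and 5 lower, with Acot3 at -2.84 (adjusted p = 0.010).

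The steps that follow the Cyp4a reaction, from alcohol to dicarboxylic acid and its peroxisomal breakdown, were represented by 28 tested genes. By edgeR 0 were called between KO and WT in either sex. At an unadjusted p under 0.05 it was 4 in males and 2 in females, against 13.1% and 8.84% of all tested genes. In Male WT against Female WT 2 were higher and 5 lower: the peroxisomal fatty acid transporter Abcd2 (-4.54, adjusted p = 1.86e-12), Acot3, Acot4 and the fatty aldehyde dehydrogenase Aldh3a2 (-1.28, 0.00348) were the 4 with the largest change. Abcd2 averaged 4.40 ± 2.33 CPM in Male KO and 1.52 ± 0.780 CPM in Male WT, a difference that did not pass (1.48, adjusted p = 0.0928), against 40.2 ± 2.66 CPM in Female KO and 39.5 ± 6.73 CPM in Female WT. In Male KO against Female KO 2 were higher and 4 lower.

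Among the other Cyp4 genes, 6 of 18 listed passed the filter, and edgeR called 0 between KO and WT. At an unadjusted p under 0.05 it was 1 in each sex, against 13.1% of all tested genes in males and 8.84% in females. Cyp4f14, which in mouse hydroxylates leukotriene B4 and long-chain fatty acids, averaged 172 ± 32.4 CPM in Male KO and 196 ± 18.2 CPM in Male WT, and 189 ± 45.8 CPM in Female KO and 225 ± 26.5 CPM in Female WT. The only call between the sexes was Cyp4v3, higher by 0.76 (log2) in Male WT (adjusted p = 3.18e-05) and by 0.47 in Male KO (adjusted p = 0.00553) than in females of the same line. The 7 genes that carry electrons to microsomal P450s were called in no contrast by edgeR. At an unadjusted p under 0.05 it was 2 in Male KO against Male WT and 1 in Female KO against Female WT. Between the sexes it was 2 in WT and 3 in KO. The shares of all tested genes were 13.1%, 8.84%, 17.2% and 24.1% in the same order. Por, the P450 reductase, averaged 231 ± 143 CPM in Male KO and 372 ± 198 CPM in Male WT (-0.57, adjusted p = 0.534).

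Arachidonic acid is also turned over by Cyp2c and Cyp2j P450s and the epoxide hydrolases, of which 13 were tested. By edgeR 0 were called between KO and WT in either sex. At an unadjusted p under 0.05 it was 3 in males and 1 in females, against 13.1% and 8.84% of all tested genes. In Male WT against Female WT 2 were higher and 5 lower, led by Cyp2c39 (-3.16, adjusted p = 2.63e-12), Cyp2c40 (-3.03, 2.74e-09), Cyp2c38 (-2.52, 2.32e-08) and Cyp2c37 (-1.25, 2.31e-05). In Male KO against Female KO 1 was higher, Cyp2c29 (1.19, adjusted p = 3.14e-07), and 5 were lower. The Cyp2c genes include close copies too, so their single levels are uncertain.

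Many sex-biased liver genes are known to follow the pulsatile or continuous release of growth hormone, read through STAT5. Of 21 tested male-biased genes other than Cyp4a, 19 were higher in Male WT than in Female WT and 17 higher in Male KO than in Female KO. Over all tested genes edgeR called 2.36% higher in Male WT and 3.67% higher in Male KO. The male-biased and female-biased lists were chosen with earlier results of these data known, so their counts do not test for sex bias. Within the male-biased list the largest called differences in WT were those of Hsd3b5 (8.07), Elovl3 (5.05), Cyp2d9 (4.85) and Mup20 (4.48). In Male KO against Male WT edgeR called 0 of the 21, with 11 at an unadjusted p under 0.05 and a median of -0.36. Over all tested genes 13.1% had such a p and the median was 0.04. In Female KO against Female WT edgeR called 0, with 3 at an unadjusted p under 0.05, against 8.84% of all tested genes. Cyp2d9, a male-biased steroid hydroxylase, averaged 1417 ± 226 CPM in Male KO and 2159 ± 153 CPM in Male WT (-0.53, adjusted p = 0.258). In females it averaged 89.9 CPM in KO and 79.8 CPM in WT.

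Of 28 tested female-biased genes, 27 were lower in males in both lines and Cyp2b10 was higher. Over all tested genes edgeR called 3.25% lower in Male WT and 3.77% lower in Male KO. In Male KO against Male WT edgeR called 0 of the 28, with 6 at an unadjusted p under 0.05 and a median of 0.50. Over all tested genes 13.1% had such a p and the median was 0.04. In Female KO against Female WT edgeR called 1 of the 28, the sulfotransferase Sult2a1 (1.30, adjusted p = 0.0207), against 0.193% of all tested genes. At an unadjusted p under 0.05 it was 6 of the 28, against 8.84% of all tested genes. The median was 0.07 over the 28 and 0.01 over all tested genes. Among 13 genes of growth hormone and STAT5 signalling 1 was called between Male KO and Male WT, against 0.132% of all tested genes. It was Cish, a STAT5-induced inhibitor (3.14, adjusted p = 1.33e-04). Cish averaged 38.6 ± 23.9 CPM in Male KO and 4.56 ± 2.28 CPM in Male WT. At an unadjusted p under 0.05 it was 4 of the 13 genes in males, against 13.1% of all tested genes. The female-enriched repressor Cux2 was lower in Male WT than in Female WT (-5.45, adjusted p = 3.26e-09) and in Male KO than in Female KO (-4.47, adjusted p = 4.20e-07). In all, 2 of the 13 were higher and 3 lower in Male WT, and 1 higher and 1 lower in Male KO, while 0 were called in Female KO against Female WT (1 at an unadjusted p under 0.05). Of 20 nuclear receptors and cofactors, 2 in Male WT and 3 in Male KO were lower than in females of the same line, among them the oestrogen receptor Esr1 (-1.49 and -1.51) and the coactivator Ppargc1a (-0.92 and -0.998).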

How the data were processed

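Liver polyA RNA was read by 3′ end counting, per the labels' protocols, in 23 libraries grouped by their titles. The authors deposited, for 65535 genes, fractional expected counts and a CPM column for each library. These CPM cover 98.9% to 99.4% of their full scale. The number 65535 may be a spreadsheet's row limit, so genes could be missing from the table, and any outside it were not analysed. STAR 2.7.11 and featureCounts (Subread 2.1.1) are named in the submitters' processing notes with build mm39, beside SAMtools 1.22.1, fastp 0.24.0, MultiQC 1.32 and FastQC 0.12.1; their order and settings are not given in the sources used here. Levels in the text are the deposited CPM.

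Counts were rounded and tested with edgeR 4.0.16 in R 4.3.3 (quasi-likelihood test, TMM, filterByExpr, 1 mean per group, 23 libraries), with Benjamini-Hochberg adjustment over the 11370 genes that passed and calls at an adjusted p under 0.05. DESeq2 1.42.0, limma 3.58.1 (voom) and other settings were alternatives. The scripts were tested on simulated data. Genes were matched by name, and 11373 gene IDs had none. Depth limits precision: 3 counts equal 0.304 to 1.95 CPM. No 2 libraries of a group were copies (counts differed by a chi-square per degree of freedom of 2.78 to 32.2 over 55 pairs).

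The 6 members, the gene lists and the tests were chosen with earlier results of these data known. All members were named in every contrast; of each list, counts and up to 4 called genes with the largest change and at least 5 CPM, with other genes given as values; and, of the 3 genes most correlated with each member, those reported here; a few results are not reported here. Sequences came from GENCODE M21 (GRCm38) transcripts. The replicate numbers did not pair the libraries, so the replicate block is an alternative.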

Additional observations from a re-analysis of the deposited data

Results flagged for a closer look

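Of 24 combinations of a member and a group, 6 had a library whose gap to its nearest neighbour was large for the range of the group. The cut-off flags about 1 in 20 where values are normally distributed and the combinations independent. Levels here could be skewed (Cyp4a10 in Male KO had a mean of 198 and a median of 52.0 CPM), and members varied together. The count of 6 is therefore not set against that rate. Male KO replicate 5 was flagged for 3 members: Cyp4a10 at 917 CPM (next library 113), Cyp4a14 at 505 CPM (next 148) and Cyp4a31 at 27.3 CPM (next 5.48). Its Cyp4a12a and Cyp4a12b levels, 429 and 39.1 CPM, lay within the range of the other Male KO libraries. Male KO replicate 3 was flagged for a low Cyp4a12a of 197 CPM (next 429); it is the library with 1538889 counts. Cyp4a31 was also flagged in Female KO replicate 4 at 28.2 CPM (next 10.2) and in Male WT replicate 6 at 6.76 CPM (next 2.07). Female KO replicate 4 and Male WT replicate 6 also held the highest Cyp4a10 and Cyp4a14 of their groups, which were not flagged. The cause of these values was not tested.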

How the results depend on the processing

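Leaving out 1 library at a time gave 13 to 24 genes called for Female KO against Female WT (22 with all libraries), 7 to 49 for Male KO against Male WT (15), 0 to 0 for the interaction (0), 502 to 566 for Male WT against Female WT (638) and 592 to 1693 for Male KO against Female KO (846). Members called were 0 to 0, 0 to 1, 0 to 0, 3 to 5 and 2 to 5 in the same order. The counts of genes that moved by over 1.5 times were 13 without Female WT replicate 1, 49 without Male KO replicate 2, 9 without Male KO replicate 3, 7 without Male WT replicate 3, 4, 5 or 6, and, in Male KO against Female KO, 1693 without Male KO replicate 2 and 1577 without Female KO replicate 4. Log2 differences that changed sign in such fits ranged from -0.0862 to 0.84 (Cyp4a10), -0.23 to 0.16 (Cyp4a12a), -0.43 to 0.63 (Cyp4a12b) and -0.20 to 0.50 (Cyp4a31) in Female KO against Female WT, from -1.79 to 0.0378 for Cyp4a31 in Male KO against Female KO and from -0.33 to 2.30 for the interaction of Cyp4a10; none of these was called with all libraries.

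With no filter on low counts, 62 genes were called in females, 157 in males, 25 for the interaction, and 5 members in Male KO against Male WT and 4 in Male KO against Female KO. DESeq2 called 47 genes in females, 47 in males and 2 members in Male KO against Male WT; limma-voom called 8 genes in males and 1 member, and put Cyp4a12b in Female KO against Female WT at 0.31. With only the groups compared in the fit, 1121 genes were called for Male WT against Female WT, 398 for Male KO against Female KO, and 1 member in Male KO against Male WT, as with unrounded counts (1). The replicate block called 1 gene for the interaction and 1 member in Male KO against Male WT, and 15, 12, 594 and 844 genes in the other contrasts; same-numbered libraries correlated at -0.36 to 0.30, so the numbers are not taken as pairs. The cause of these shifts was not tested. Of 549 values of single members under an alternative, 506 kept their direction and side of the threshold. Summing close copies gives no count of members. Low depth limits Cyp4a32, and Cyp4a12b in females.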
